A study of Homo sapiens with 18 samples.

Results

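Transcripts of 10 genes of the interleukin-1 family were followed through 18 RNA sequencing libraries of human breast epithelial lines. The genes were chosen by family name, but with earlier results of these data known, so counts among them are not independent of the data. They are the ligands IL1A (ENSG00000115008), IL1B (ENSG00000125538), IL36G (ENSG00000136688), IL18 (ENSG00000150782) and IL33 (ENSG00000137033), the receptor antagonist IL1RN (ENSG00000136689), the receptors IL1R1 (ENSG00000115594) and IL1RL1 (ENSG00000115602), the shared co-receptor IL1RAP (ENSG00000196083) and the decoy receptor IL1R2 (ENSG00000115590). All 10 were among the 35933 genes for which the deposited table of normalized counts holds values.

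Cytokines of this family are alarm signals of epithelium and immune cells. IL-1 alpha and IL-1 beta bind IL1R1, which recruits IL1RAP and passes the signal through MYD88, IRAK kinases and TRAF6 to NF-kB. IL1RN binds IL1R1 without signalling, and IL1R2 binds ligand but lacks the signalling domain, so that both limit the response. IL-33 acts through IL1RL1 with the same co-receptor, IL-36 gamma through IL1RL2, and IL-18 through its own receptor pair, while IL-1 beta and IL-18 are cut to their active form by caspase-1. Keratinocytes and other lining cells keep IL-1 alpha, IL-18 and IL-33 in store as preformed protein, which RNA levels do not show.

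The study followed N6-methyladenosine, the RNA mark written by the METTL3 methyltransferase, through 3 lines used as stages of breast cancer progression. MCF10A is an immortalized mammary line that forms no tumours, MCF10AT1 was made from it with a mutated HRas, and MCF10CA1H came from MCF10AT1 after passages as xenografts in mice. Each line was sequenced as a negative CRISPR line, called control here, and as a line labelled METTL3 knockdown, called METTL3 CRISPR, whose guide targeted exon 1 of the gene, with 3 libraries a, b and c per group. All 6 groups grew in one medium with horse serum, insulin, hydrocortisone, cholera toxin and epidermal growth factor, and all had been transfected, sorted for mCherry and grown from single cells.

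Each group is therefore 1 CRISPR line, and the spread between its libraries leaves out differences between clones. Neither the labels nor the methods say that the 3 libraries of a group came from separate cultures, so the p-values measure the spread between libraries, which may be technical. METTL3 transcripts reached 128% of the control mean in METTL3 CRISPR cells of MCF10A, 88.5% in MCF10AT1 and 70.8% in MCF10CA1H (exact two-sided permutation p = 0.3, 0.3 and 0.1, the last being the smallest that 3 libraries against 3 allow). By limma METTL3 passed as lower in MCF10CA1H (log2 fold change -0.49, SE 0.12, adjusted p = 0.0234), though not without control c (-0.40, adjusted p = 0.0906) or METTL3 CRISPR b (-0.44, adjusted p = 0.0854), and did not pass in MCF10A or MCF10AT1 (0.33 and -0.17, adjusted p = 0.618 and 0.707). By RNA the labelled knockdown was thus not seen as a lower METTL3 level in MCF10A or, beyond the spread, in MCF10AT1. The study checked the knockdown on METTL3 protein, and it also measured METTL3 mRNA by real-time PCR and N6-methyladenosine in these lines. Those measurements are not in the files used here and their results are not reported here. The labels are used as given. The library sums lay between 21347352 and 31681834. Epithelial markers were present in all 6 groups, with all 10 of 10 at a mean of at least 10, while the leukocyte marker PTPRC was at 5.31 or less in every library. Other leukocyte markers were present, with 2 or 3 of the 9 that had values at a mean of at least 10 in each group. Their sums lay between 319 and 2969 over the libraries. METTL3 CRISPR cells of MCF10AT1 stood apart, with CDH1 at 11.6 to 79.2 against 2105 to 6138 in their controls and summed mesenchymal markers at 118103 to 206507 against 3785 to 5132. Of 7 mesenchymal markers tested there 4 passed as higher and none as lower, with 5 at log2 fold changes above 0. Of the 10 epithelial markers 6 passed as lower there and 4 did not pass, with 2 at log2 fold changes above 0. Their sum overlapped between the arms, at 103545 to 194512 against 131348 to 201675 in controls.

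Of the 10 genes 7 lie on chromosome 2, in 2 groups. IL1R2 (chr2:101991960-102028544), IL1R1 (chr2:102064544-102179874) and IL1RL1 (chr2:102311502-102352037) are part of a receptor cluster of 460.6 kb with 6 family genes, all on the plus strand. IL1A (chr2:112773925-112784493, minus strand), IL1B (chr2:112829751-112836816, minus strand), IL36G (chr2:112973203-112985658, plus strand) and IL1RN (chr2:113099315-113134016, plus strand) are part of a ligand cluster of 360.1 kb with 9 family genes. IL33 lies at chr9:6215786-6257983 on the plus strand, IL1RAP at chr3:190514051-190659750 on the plus strand and IL18 at chr11:112143253-112164096 on the minus strand. These positions are those of GENCODE 44 on hg38. The annotated span of IL1RL1 overlaps that of IL18R1 on the same strand, so reads in the shared stretch can be split between them, and values summed to genes do not separate the soluble from the membrane form of IL1RL1 or the secreted from the intracellular form of IL1RN.

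The results turn most on IL1A, IL1B, IL1RN, IL1RL1 and IL1R2, and the 250 bases before the start of each are shown so that their promoters can be compared. They are RefSeq sequences of GRCh38.p14 on the strand of the gene, at chr2:112784494-112784743, chr2:112836780-112837029, chr2:113127348-113127597, chr2:102311313-102311562 and chr2:101991710-101991959 in that order, and capitals mark matches on either strand to the TATA box TATAAA, the CCAAT box, the AP-1 motif TGANTCA, the interferon response element (the letters GAAA repeated after a gap of 2 bases) or the NF-kB consensus.
IL1A: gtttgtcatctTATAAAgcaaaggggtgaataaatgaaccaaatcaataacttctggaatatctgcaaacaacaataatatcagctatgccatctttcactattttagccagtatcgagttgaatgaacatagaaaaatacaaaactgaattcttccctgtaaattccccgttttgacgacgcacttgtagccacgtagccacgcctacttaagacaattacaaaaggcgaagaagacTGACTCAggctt
IL1B: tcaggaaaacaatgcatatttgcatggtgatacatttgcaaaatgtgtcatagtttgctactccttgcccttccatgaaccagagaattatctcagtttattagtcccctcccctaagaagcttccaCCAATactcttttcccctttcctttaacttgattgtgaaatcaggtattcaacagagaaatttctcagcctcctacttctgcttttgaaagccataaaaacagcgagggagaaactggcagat
IL1RN: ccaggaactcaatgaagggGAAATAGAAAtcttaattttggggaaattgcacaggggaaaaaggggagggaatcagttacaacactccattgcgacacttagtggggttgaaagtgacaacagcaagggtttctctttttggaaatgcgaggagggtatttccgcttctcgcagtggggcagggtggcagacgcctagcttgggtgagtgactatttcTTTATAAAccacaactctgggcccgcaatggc
IL1RL1: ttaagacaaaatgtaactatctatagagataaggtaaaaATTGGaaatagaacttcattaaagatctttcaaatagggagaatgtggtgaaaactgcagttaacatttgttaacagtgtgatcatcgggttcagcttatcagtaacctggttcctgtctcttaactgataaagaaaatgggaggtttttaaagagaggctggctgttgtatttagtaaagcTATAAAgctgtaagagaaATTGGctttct
IL1R2: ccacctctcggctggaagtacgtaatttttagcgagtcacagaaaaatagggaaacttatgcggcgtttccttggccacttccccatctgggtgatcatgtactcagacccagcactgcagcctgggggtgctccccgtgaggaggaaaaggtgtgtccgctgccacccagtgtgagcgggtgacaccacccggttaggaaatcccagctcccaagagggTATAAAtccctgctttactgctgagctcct

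TATAAA began 29 to 30 bases before the start of IL1RN, IL1RL1 and IL1R2, on the strand of the gene, where TATA boxes are usually found. A match in that place, 35 to 25 bases before the start, was held by 2.2% of the 35116 promoters in the table. In IL1RN it overlaps another match read on the other strand, TTTATA, and the match of IL1A lies far upstream, at -239 to -234. TGACTCA lay 12 to 6 bases before the start of IL1A, a motif held by 6.6% of promoters in the 250 bases searched, and GAAATAGAAA lay at -231 to -222 of IL1RN, where 3.0% of promoters hold such a match. CCAAT or its complement was found in 5 of the 9 promoters, those of IL1B, IL36G, IL1R1, IL1RL1 and IL1RAP, beside 32.0% of all promoters. The NF-kB consensus, held by 5.2% of promoters, had no match in these windows, and IL33 had none of the motifs. IL18 was not in the promoter table. A match is a description of the letters only.

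Along the canonical transcript, GGACT, the commonest form of the methylation motif of METTL3, occurred 5 times in IL1RN and IL1RAP, 4 times in IL1B and IL1R1, 3 times in IL36G and IL1R2 and 2 times in IL1RL1. It was missing from IL1A, IL18 and IL33. The median over the 10 transcripts was 3.0, the same as over 19550 canonical transcripts of protein-coding genes, of which 88.7% held the motif at least once. ATTTA, the core of AU-rich decay elements, occurred 15 times in the 3′ untranslated part of IL1RAP, 8 times in that of IL1R1, 6 times in IL1B, 5 times in IL1A, 4 times in IL33 and 1 time in IL36G and IL1R2, and not in IL18, IL1RN or IL1RL1. Per kb, IL1B had 9.84 and IL1R2 6.58, beside a median of 1.5 over all transcripts. No methylation was measured at these motifs in the files used here.

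**Figure D1:**
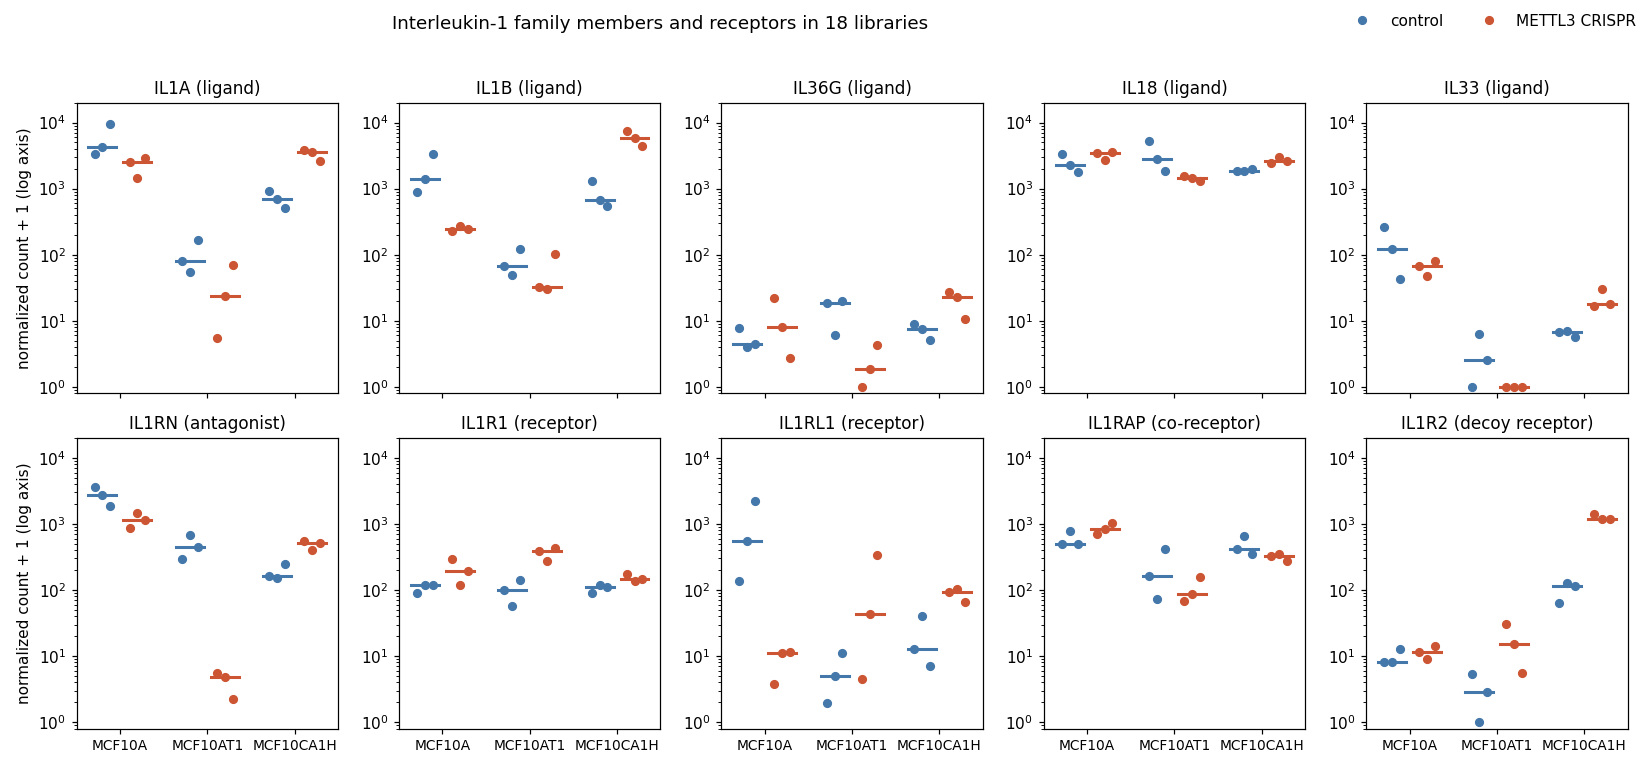
Normalized count plus 1 (log axis) of each of the 10 genes in the 18 libraries, with control libraries in blue, METTL3 CRISPR libraries in red and a bar at the group median. IL1A, IL1B and IL1RN are lower in METTL3 CRISPR than in control libraries of MCF10A and higher in MCF10CA1H, and IL1RN is at 4.5 or less in METTL3 CRISPR libraries of MCF10AT1.

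In control cells the agonists, the antagonist, IL33, IL1RL1 and IL1R2 each differed between at least 2 of the 3 lines by more than the spread, while IL18 and IL1R1 stayed near one level. MCF10A carried the most IL1A, IL1RN, IL33 and IL1RL1 RNA, MCF10AT1 the least of both agonists, and MCF10CA1H stood out by its decoy receptor. Of 9 genes tested, all but IL36G whose mean was under 10, 6 were lower in MCF10AT1 than in MCF10A at an adjusted p under 0.05, and none was higher. In that comparison 28.1% of all tested genes passed, 14.7% of them lower and 13.3% higher. Between MCF10CA1H and MCF10A 4 were lower and 1 higher, where 37.8% of all genes passed (18.8% lower, 19% higher). MCF10CA1H was above MCF10AT1 for 3 genes and below it for 1, where 21.8% of all genes passed (11% higher, 10.8% lower). By its means, IL33 (142.2 in MCF10A, 2.29 in MCF10AT1, 5.53 in MCF10CA1H) was tested only through MCF10A. IL1R2 (8.66, 2.09 and 102.12) was tested only through MCF10CA1H, and IL1RL1 (980.73, 5.02 and 19.28) would not have been tested without its MCF10A level. The calls of IL33 and IL1R2, and that of IL1RL1 in MCF10AT1, thus had a fixed direction and add no support to these counts.

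IL1A, the agonist that cells can hold on their membrane, was at 3337, 4236 and 9438 in the control libraries of MCF10A, at 80.5, 54.6 and 167 in MCF10AT1 and at 905, 704 and 513 in MCF10CA1H. The 3 lines did not overlap, and every step of this order passed the test. MCF10AT1 was 56-fold below MCF10A (log2 fold change -5.81, SE 0.47, adjusted p = 0.000242) and MCF10CA1H 7.56-fold above MCF10AT1 (log2 fold change 2.92, SE 0.47, adjusted p = 0.00295). IL1B, the secreted agonist, was at 902, 1418 and 3392 in MCF10A, at 66.5, 48.2 and 119.8 in MCF10AT1 and at 1324, 679.6 and 553 in MCF10CA1H. It was 22.1-fold lower in MCF10AT1 than in MCF10A (adjusted p = 0.000922), and the values of MCF10CA1H and MCF10A overlapped (log2 fold change -1.04, 95% interval -2.22 to 0.14, adjusted p = 0.144).

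Among the other ligands, IL33, which signals through IL1RL1, was at 262, 123 and 42.1 in MCF10A and at 6.1 or less in every control library of the other 2 lines (log2 fold change -5.47 in MCF10AT1 and -4.10 in MCF10CA1H, adjusted p = 0.00243 and 0.00424). IL18, which acts with IL-12 on lymphocytes, lay between 1789 and 5314 in all 9 control libraries, and no pair of lines passed the test (adjusted p = 0.476, 0.521 and 0.221), although MCF10CA1H was lower than MCF10AT1 when MCF10AT1 control c was left out (log2 fold change -1.02, adjusted p = 0.0295). IL36G, an agonist of skin and airway epithelium, was at 18.9 or less in all of them and was not tested.

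The antagonist gene IL1RN fell along the 3 lines, from 3599.5, 2772 and 1839 in MCF10A to 289, 686 and 451 in MCF10AT1 and 159, 149 and 247 in MCF10CA1H. The groups did not overlap at either step. MCF10AT1 was 5.89-fold below MCF10A (log2 fold change -2.56, SE 0.37, adjusted p = 0.00224) and MCF10CA1H 2.47-fold below MCF10AT1 (log2 fold change -1.30, SE 0.37, adjusted p = 0.0322). The second step did not pass without library b of the MCF10A controls (log2 fold change -1.30, adjusted p = 0.0538), library b of the MCF10AT1 controls (-1.0, adjusted p = 0.0669) or library a or b of the MCF10CA1H controls (-1.22 and -1.17, adjusted p = 0.108 and 0.117), nor with all libraries scaled to equal sums (-1.19, adjusted p = 0.05 after rounding).

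Of the receptors, IL1R1, the signalling receptor of both agonists, lay between 57.1 and 139 in all 9 control libraries, and no 2 lines could be told apart (95% interval of the log2 fold change -1.01 to 0.56 for MCF10AT1 and -0.85 to 0.73 for MCF10CA1H against MCF10A). IL1RL1, the IL-33 receptor, was at 136, 558 and 2249 in MCF10A, at 0.95, 3.99 and 10.1 in MCF10AT1 and at 12, 39.9 and 6 in MCF10CA1H. Its level thus differed widely among libraries of the same line, from 136 to 2249 in MCF10A, so the size of the fold change is uncertain. Every MCF10A library was above all the others (log2 fold change -6.87 and -5.17, SE 1.05, adjusted p = 0.00298 and 0.00499). IL1RAP, which both receptors need, was at 502, 771 and 489 in MCF10A, 159.7, 72.7 and 412 in MCF10AT1 and 417, 662 and 344 in MCF10CA1H. It passed for MCF10AT1 against MCF10A (log2 fold change -1.76, SE 0.54, adjusted p = 0.0397). That call was lost when any control library other than MCF10AT1 c was left out, with log2 fold changes of -1.88 to -1.16 and adjusted p-values between 0.0535 and 0.133. It was also lost with no filter (adjusted p = 0.0504), with a prior variance that did not follow the intensity (0.0557) and with equal sums (0.0629). Without MCF10AT1 control c, IL1RAP passed as higher in MCF10CA1H than in MCF10AT1 (2.07, adjusted p = 0.00474), as it did in the joint fit of the 18 libraries (1.43, adjusted p = 0.0301).

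The decoy receptor IL1R2 was near the detection limit in MCF10A (7.1, 7.16 and 11.7) and MCF10AT1 (4.38, 0 and 1.9) and clearly present in MCF10CA1H (63.5, 129 and 114). MCF10CA1H was 10.5-fold above MCF10A (log2 fold change 3.39, SE 0.65, adjusted p = 0.0038) and 39.5-fold above MCF10AT1 (log2 fold change 5.30, SE 0.65, adjusted p = 0.000706), the second against a group with 1 library at 0, so that its size depends on the pseudocount of 1. MCF10AT1 was below MCF10A at an adjusted p of 0.0511, which passed without MCF10AT1 control a (log2 fold change -2.47, adjusted p = 0.0391) or c (-2.03, adjusted p = 0.0405), with a prior variance that did not follow the intensity (adjusted p = 0.0443) and in the joint fit (0.021). IL1R2 was the one gene of the 9 that was highest in MCF10CA1H in every library.

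**Figure D2:**
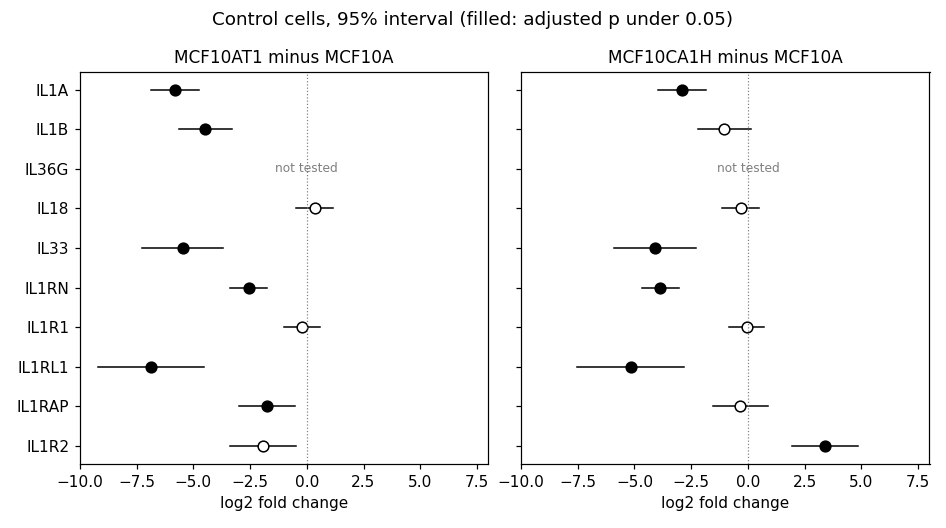
Log2 fold change of each gene in control cells of MCF10AT1 (left) and MCF10CA1H (right) against MCF10A, with 95% intervals from limma, filled points marking an adjusted p under 0.05. Every filled point lies below 0 apart from IL1R2 in MCF10CA1H at 3.39, and IL18 and IL1R1 cross 0 in both.

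In MCF10A, the METTL3 CRISPR line had less RNA of IL1B and of IL1RL1 than its control. Of 8 genes tested 2 were lower and none higher, where 2.65% of all tested genes passed (1.49% lower, 1.16% higher). IL1RL1, with a METTL3 CRISPR mean of 7.79, entered the fit only through the control arm (980.73). It could thus only be lower or not pass, so its call adds no support to the count. IL36G and IL1R2 were not tested, being at 20.9 or less and 13.4 or less in all 6 libraries. In bulk RNA, fewer cells that express a gene and less RNA per cell cannot be told apart. Summed leukocyte markers moved with these results, at 319 to 549.8 against 755 to 2114 in controls, of which CD68 made up most (209.6 to 490.4 against 595 to 2006) while PTPRC was near 0, and their part was not tested. Summed epithelial markers (324650 to 361510 against 251359 to 301242) and endothelial markers (336.6 to 535 against 31.1 to 218) also did not overlap. Of the 10 epithelial markers 1 passed, as higher, and 5 had log2 fold changes above 0, with a median of -0.076 over that list. None of the 3 tested leukocyte markers and none of the 2 tested endothelial markers passed. The part of epithelial and endothelial markers was not tested either.

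IL1B was at 228, 268 and 239.9 in the METTL3 CRISPR libraries of MCF10A against 902, 1418 and 3392 in its controls. All 3 were lower than any control, by 6.64-fold (log2 fold change -2.73, SE 0.42, adjusted p = 0.0184). IL1A, at 2530.5, 1443 and 2864 against 3337, 4236 and 9438, also did not overlap, but the difference did not pass (log2 fold change -1.22, SE 0.40, adjusted p = 0.154). For IL1RN, with 865, 1471 and 1153 against 3599.5, 2772 and 1839, the same held (log2 fold change -1.21, SE 0.28, adjusted p = 0.0655). Libraries of the same letter deviated together weakly in this line, with r from 0.116 to 0.221, beside 0.009 or less for different letters. With the letter as a block both passed at these fold changes, IL1A at an adjusted p of 0.0238 and IL1RN at 0.0276. The genes that passed were then 4, and the share of all genes passing in that fit was not counted.

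IL1RL1 was at 2.75, 9.99 and 10.6 against 136, 558 and 2249 (log2 fold change -6.15, SE 0.93, adjusted p = 0.0173). Although its control libraries differed widely, none came near the METTL3 CRISPR libraries. IL18R1, the IL-18 receptor gene whose annotation overlaps that of IL1RL1, also passed (log2 fold change -2.88, SE 0.45, adjusted p = 0.0193). IL18 (log2 fold change 0.44), IL33 (-0.80), IL1R1 (0.79) and IL1RAP (0.57) did not pass, with adjusted p-values of 0.374, 0.539, 0.283 and 0.235. Neither IL1B nor IL1RL1 passed when control library b or any one METTL3 CRISPR library was left out, at log2 fold changes of -2.83 to -2.68 for IL1B (adjusted p between 0.0648 and 0.0842) and of -6.44 to -5.62 for IL1RL1 (adjusted p between 0.0574 and 0.0725). With a prior variance that did not follow the intensity, IL1B was at an adjusted p of 0.055. IL1A passed without control library a (log2 fold change -1.53, adjusted p = 0.0462) and IL1RN without control library c (-1.47, adjusted p = 0.0389).

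In MCF10AT1, the antagonist was nearly lost from the METTL3 CRISPR line while the signalling receptor was higher. Of 7 genes tested IL1RN was lower and IL1R1 higher, and 13% of all tested genes passed (5.96% lower, 7.07% higher). IL36G, IL33 and IL1R2 had means under 10. CDH1 and the mesenchymal markers moved with these results in the same libraries, as given above, and so did summed leukocyte markers, at 1972 to 2969 against 803 to 1531 in controls, of which none of 2 tested passed. Their part in the results was not tested.

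IL1RN was at 4.5, 3.78 and 1.21 in the METTL3 CRISPR libraries and at 289, 686 and 451 in the controls, 116-fold lower (log2 fold change -6.85, SE 0.57, adjusted p = 0.000207). It passed under every alternative tried and without any one library, at adjusted p-values up to 0.00196. With a METTL3 CRISPR mean of 3.16, IL1RN entered the fit only through the control arm (475.25). It could thus only be lower or not pass, and its call adds no support to the count. The agonists were low in both arms of this line. IL1A was at 4.54, 22.5 and 69.5 against 80.5, 54.6 and 167, and IL1B at 31.1, 28.8 and 101 against 66.5, 48.2 and 119.8. Their arms overlapped and neither passed (log2 fold change -2.12, adjusted p = 0.175, and -0.68, adjusted p = 0.525). IL18, at 1576, 1431 and 1297 against 5314, 2798 and 1831, was lower in every METTL3 CRISPR library without passing (log2 fold change -1.07, SE 0.39, adjusted p = 0.114). It passed without control library c (-1.43, adjusted p = 0.0304). In the joint fit of the 18 libraries IL1A (adjusted p = 0.0218) and IL18 (0.00977) passed. IL33 was listed at 0 in all 3 METTL3 CRISPR libraries and at 0, 5.37 and 1.5 in the controls.

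IL1R1 was at 386, 278 and 437 against 100, 57.1 and 139, a 3.86-fold difference without overlap (log2 fold change 1.95, SE 0.42, adjusted p = 0.0192). Its call was lost when control library a or any METTL3 CRISPR library was left out (log2 fold change 1.81 to 2.14, adjusted p between 0.0554 and 0.0708), and also with all libraries scaled to equal sums (1.78, adjusted p = 0.0664). IL1RL1 ranged widely, at 3.44, 42.4 and 338 against 0.95, 3.99 and 10.1, and did not pass (log2 fold change 3.08, SE 1.46, adjusted p = 0.216) except without METTL3 CRISPR library a (4.67, adjusted p = 0.0493). IL1RAP, at 68.2, 86.2 and 155 against 159.7, 72.7 and 412, overlapped (log2 fold change -0.79, adjusted p = 0.472). IL1R2 was at 29.3, 14.3 and 4.51 against 4.38, 0 and 1.9, with every METTL3 CRISPR library above every control. In MCF10AT1 the letters paired the libraries only in part, as METTL3 CRISPR a correlated less with control a (r = 0.11) than with control b (0.251). With the letter as a block 5 genes passed, IL1A (adjusted p = 0.028), IL18 (0.0155) and IL1RL1 (0.0189) being added. The share of all genes passing in that fit was not counted.

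In MCF10CA1H, 7 of the 10 genes were higher in the METTL3 CRISPR line and none was lower, among them both agonists, the antagonist and the decoy receptor. Of all tested genes 12.8% passed, 7.91% of them higher and 4.85% lower. IL33 and IL36G, with control means of 5.53 and 6.15, entered the fit only through the METTL3 CRISPR arm (20.51 and 19.21). They could thus only be higher or not pass, so the call of IL33 adds no support to the count. The median log2 fold change of the 10 genes, IL33 and IL36G included, was 1.55, beside -0.02 over all genes tested. In MCF10A the median over the 8 genes tested was -1.01 and in MCF10AT1 over the 7 it was -0.79, beside -0.003 and 0.02 over all genes. Summed epithelial markers lay at 452837 to 487580 against 342394 to 374929 in controls of MCF10CA1H and summed mesenchymal markers at 41173 to 52158 against 27975 to 33022. Of the 10 epithelial markers 4 passed as higher and none as lower, with 7 at log2 fold changes above 0. Of 8 mesenchymal markers tested 2 passed as higher and 1 as lower, with 6 at log2 fold changes above 0. Summed endothelial markers were at 46.2 to 74.9 against 129 to 165, with PECAM1 lower (log2 fold change -1.20, adjusted p = 0.0389). Summed leukocyte markers overlapped, with CD68 higher (1.05, adjusted p = 0.0144) and CD14 lower (-1.14, adjusted p = 0.0167). The part of these markers in the results was not tested.

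IL1B was at 7383, 5931 and 4439 in METTL3 CRISPR libraries of MCF10CA1H and at 1324, 679.6 and 553 in its controls, 7.3-fold higher (log2 fold change 2.87, SE 0.29, adjusted p = 0.000228). IL1A, at 3857, 3580.1 and 2627 against 905, 704 and 513, was 4.8-fold higher (log2 fold change 2.26, SE 0.20, adjusted p = 0.00013). Both agonists thus lay well above the spread of either arm. IL18 rose less, from 1866, 1856 and 2002 to 2466, 2974 and 2629 (log2 fold change 0.49, SE 0.10, adjusted p = 0.011). IL33 was low throughout, at 15.6, 28.9 and 17.1 against 5.73, 6.1 and 4.75 (log2 fold change 1.68, SE 0.46, adjusted p = 0.0393). IL36G, at 26.1, 21.7 and 9.79 against 7.87, 6.5 and 4.09, was higher in each library but did not pass (adjusted p = 0.104).

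IL1RN was at 556, 397 and 506 against 159, 149 and 247 (log2 fold change 1.41, SE 0.21, adjusted p = 0.00254), so that agonists and antagonist were higher together. The decoy receptor IL1R2 had the largest change of the family in this line, from 63.5, 129 and 114 to 1426, 1171 and 1203, or 12.8-fold (log2 fold change 3.68, SE 0.24, adjusted p = 2.63e-05). IL1RL1 was at 90.7, 103 and 65.8 against 12, 39.9 and 6 (log2 fold change 2.48, SE 0.55, adjusted p = 0.0165). The signalling receptor IL1R1, at 171, 137 and 147 against 87.5, 118 and 109, did not pass (log2 fold change 0.54, 95% interval 0.10 to 0.98, adjusted p = 0.109). IL1RAP was the only one of the 10 with a lower mean, at 324, 355 and 275 against 417, 662 and 344, which did not pass either (log2 fold change -0.53, adjusted p = 0.156).

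Calls of IL1A, IL1B, IL1RN and IL1R2 in MCF10CA1H were kept without any one of its 6 libraries. IL18 did not pass without control library a (log2 fold change 0.48, adjusted p = 0.0509), and IL1RL1 not without control library a or METTL3 CRISPR library b (2.35 and 2.34, adjusted p = 0.057 and 0.0689). IL33 kept its call in none of these fits. Without METTL3 CRISPR library b its mean fell under 10 and it was not tested. Without any of the other 5 libraries IL33 had log2 fold changes of 1.59 to 1.84 and adjusted p-values between 0.0584 and 0.0977. With a prior variance that did not follow the intensity, IL18 and IL1RL1 did not pass (adjusted p = 0.0583 and 0.0705), and with no filter on low genes IL33 did not (0.0923). In a joint fit of the 18 libraries, whose spread includes that of the other 2 lines, 2 genes passed, IL1B and IL1R2. The share of all genes passing in the joint fit was not counted.

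**Figure D3:**
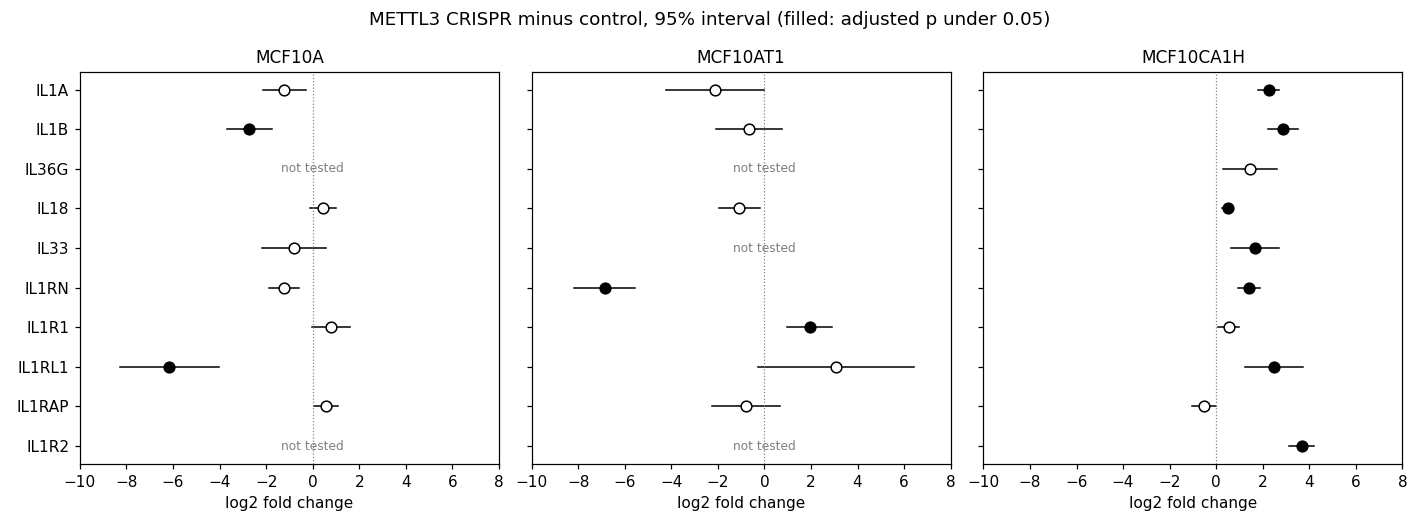
Log2 fold change of METTL3 CRISPR against control in each line with its 95% interval from limma, for the 10 genes, filled points marking an adjusted p under 0.05. IL1B and IL1RL1 lie below 0 in MCF10A, IL1RN at -6.85 in MCF10AT1, and 7 filled points lie above 0 in MCF10CA1H.

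No gene of the 10 passed in all 3 lines, and 8 passed in at least 1, so the differences between lines were tested as contrasts in 1 fit of the 18 libraries. Between MCF10CA1H and MCF10A 5 of 9 genes differed in their CRISPR effect, where 5.34% of all tested genes did. IL1B differed by 5.60 on the log2 scale (SE 0.72, adjusted p = 0.000294), IL1RL1 by 8.63 (SE 1.76, adjusted p = 0.00791), IL1A by 3.49 (SE 0.94, adjusted p = 0.0405), IL1R2 by 3.39 (SE 0.85, adjusted p = 0.0286) and IL1RN by 2.63 (SE 0.54, adjusted p = 0.00806). Each was in the direction of a higher effect in MCF10CA1H. With 1 library left out, IL1A kept its call only without MCF10A control a, MCF10AT1 control b or c, or MCF10AT1 METTL3 CRISPR a or c, and was otherwise at log2 differences of 3.04 to 3.68 (adjusted p between 0.0526 and 0.121). It also did not pass with no filter (adjusted p = 0.0505), with a prior variance that did not follow the intensity (0.0603) or with equal sums (0.0676). IL1R2 lost its call without MCF10A control c, MCF10A METTL3 CRISPR a or b, MCF10CA1H control a or c, or any METTL3 CRISPR library of MCF10CA1H, at 3.08 to 3.50 (adjusted p between 0.0548 and 0.0861), and with a pseudocount of 0.5 (adjusted p = 0.0626).

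Between MCF10CA1H and MCF10AT1 5 of 9 genes differed, where 18.2% of all tested genes did. IL1RN had the largest such difference, 8.27 (SE 0.54, adjusted p = 2.22e-08), followed by IL1A with 4.39, IL1B with 3.55, IL33 with 3.01 and IL18 with 1.56. That of IL33 rests on values near 0 in MCF10AT1 and was 1.72 with a pseudocount of 5 (adjusted p = 0.0874), and with no filter its adjusted p was 0.07. It also did not pass without MCF10AT1 control b, MCF10AT1 METTL3 CRISPR a or b, any MCF10CA1H control or MCF10CA1H METTL3 CRISPR b or c, at 2.34 to 3.11 (adjusted p between 0.0517 and 0.0805). Between MCF10AT1 and MCF10A 3 of 9 differed, where 21.6% of all tested genes did, namely IL1RL1 by 9.23, IL1RN by -5.64 and IL18 by -1.51. IL18 did not pass in a fit of the 12 libraries of these lines alone (adjusted p = 0.0565). With the letter as a block IL1B (2.05, adjusted p = 0.00458), IL1RAP (-1.37, adjusted p = 0.0344) and IL1R2 (2.16, adjusted p = 0.0474) were added in that contrast. The same 3 genes and IL1R1 each passed there without single libraries: IL1B without MCF10A control a, MCF10AT1 control c, MCF10AT1 METTL3 CRISPR a or b, or MCF10CA1H control a (2.05 to 2.48), IL1RAP without MCF10AT1 control b (-1.97), IL1R2 without MCF10AT1 control a or METTL3 CRISPR c (2.71 and 2.82) and IL1R1 without MCF10A METTL3 CRISPR a or MCF10AT1 control c (1.48 and 1.45). Between MCF10CA1H and MCF10AT1 IL1R1 passed without MCF10A METTL3 CRISPR a or b or MCF10AT1 control c (-1.41, -1.41 and -1.70), and with the letter as a block (-1.41, adjusted p = 0.0395), and IL1R2 with a pseudocount of 5 (2.19, adjusted p = 0.0127). IL1R1, IL1RAP and IL33 did not differ past the threshold between MCF10CA1H and MCF10A, at log2 differences of -0.26, -1.10 and 2.48 (adjusted p = 0.87, 0.437 and 0.154), although IL33 passed in the fit of the 12 libraries of these lines (adjusted p = 0.0467).

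Antagonist and agonists were set against each other in each library as the ratio of the normalized count of IL1RN to the sum of IL1A and IL1B. Normalized counts are not per length, so the ratio is compared between libraries and is not a ratio of molecules. It was 0.849, 0.49 and 0.143 in MCF10A controls and 0.313, 0.86 and 0.371 in METTL3 CRISPR libraries, which overlapped. In MCF10AT1 it was 1.96, 6.67 and 1.57 in controls and 0.126, 0.0737 and 0.00709 in METTL3 CRISPR libraries. In MCF10CA1H it was 0.0715, 0.108 and 0.232 against 0.0495, 0.0418 and 0.0717, where the highest METTL3 CRISPR library lay just above the lowest control. MCF10AT1 thus held both the highest ratios of the 18 libraries, in its controls, and the lowest one, in METTL3 CRISPR library c.

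**Figure D4:**
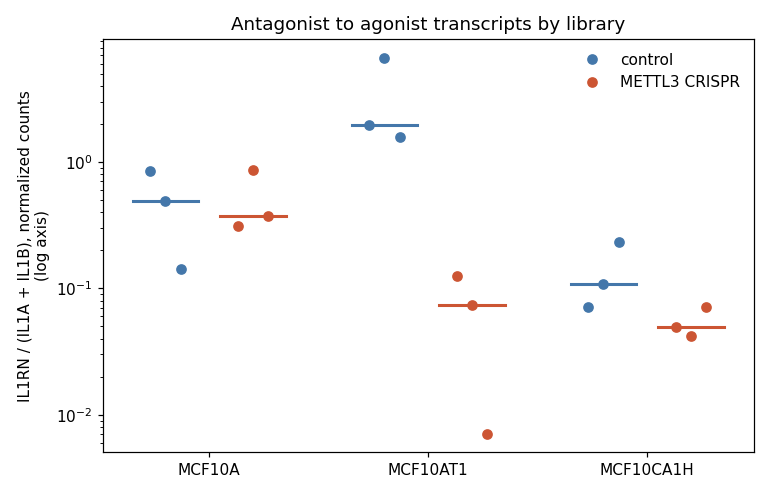
Ratio of IL1RN to the sum of IL1A and IL1B in normalized counts (log axis) in each of the 18 libraries, with a bar at the group median. Control libraries of MCF10AT1 lie between 1.57 and 6.67 and its METTL3 CRISPR libraries between 0.00709 and 0.126, while both arms overlap in MCF10A and MCF10CA1H.

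Other genes of the pathway were counted in lists. Of the 5 other ligands (IL36A, IL36B, IL36RN, IL37 and IL1F10) none reached a mean of 10 in any comparison. Of 7 genes for other receptors of the family and the IL-18 binding protein, 4 were tested in each line, where 2.65%, 13% and 12.8% of all genes passed. IL18R1 was lower in MCF10A, as given above, IL1RL2, the IL-36 receptor, was lower in MCF10AT1 (log2 fold change -4.87, adjusted p = 0.00422), and none passed in MCF10CA1H. IL1RL2 was at 0 in all 3 METTL3 CRISPR libraries of MCF10AT1 and entered that fit only through the control arm (mean 30.41). It could thus only be lower or not pass, and the size of its change depends on the pseudocount.

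Of 16 genes that process these cytokines, none of 13 tested passed in MCF10A, with 2.65% as the share over all genes. In MCF10AT1, where 13% of all genes passed, 2 of 13 were higher and 1 lower: NLRP3, the inflammasome sensor (log2 fold change 3.63), GSDMD, the pore through which IL-1 beta leaves the cell (1.78), and the protease CAPN1 (-1.96). NLRP3 had a control mean of 1.72 in that line and entered the fit only through the METTL3 CRISPR arm (23.44). In MCF10CA1H, where 12.8% of all genes passed, 7 of 14 were higher and none lower, with a median log2 fold change of 0.44 over the list. The 4 with the largest values were NLRP3 (4.01, SE 0.58), CTSS, a protease (1.32), NLRP1, the sensor of epithelial cells (1.26), and CASP4, the caspase that cuts GSDMD (0.74), and CASP1, which cuts IL-1 beta and IL-18, also passed (0.50, SE 0.11, adjusted p = 0.0144).

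Of 19 genes next to the receptor 18 were tested in each line. None passed in MCF10A, 2 in MCF10AT1 beside 13% of all genes and 3 in MCF10CA1H beside 12.8%, shares near those of all genes. IRAK2 (log2 fold change 3.19) and IKBKG (1.39) were higher in MCF10AT1. In MCF10CA1H the adaptor MYD88 was higher (1.15, SE 0.12, adjusted p = 0.000364), and PELI2 (-4.88), a ubiquitin ligase of the pathway, and CHUK (-0.52), a kinase of the NF-kB pathway, were lower.

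Genes that IL-1 is known to induce were lower in MCF10A and higher in the other 2 lines, wherever they passed. In MCF10A 2 of 19 tested were lower and none higher, beside 1.49% and 1.16% of all genes, the neutrophil chemokine CXCL8 (log2 fold change -2.42, SE 0.45) and LCN2, an iron-binding defence protein (-2.63, SE 0.49). In MCF10AT1 11 of 23 were higher and none lower, beside 7.07% and 5.96% of all genes, led by CSF3 (11.20), ICAM1 (10.44), CXCL1 (4.92) and IL6 (4.88), the growth factor of neutrophils, an adhesion receptor, a chemokine and a cytokine of the acute phase. ICAM1 went from 3.12 to 9.21 in controls to 4121 to 14585 there, in the line whose agonists were low in both arms. With every control library under 10, ICAM1 entered that fit through the METTL3 CRISPR arm alone. In MCF10CA1H 10 of 23 were higher and none lower, beside 7.91% and 4.85% of all genes, led by the chemokine CCL20 (2.83), CSF2 (2.33) and CSF3 (2.08), growth factors of myeloid cells, and C3 of complement (1.72). Over the whole list the median log2 fold change came to -0.25 in MCF10A, 1.48 in MCF10AT1 and 0.89 in MCF10CA1H.

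**Figure D5:**
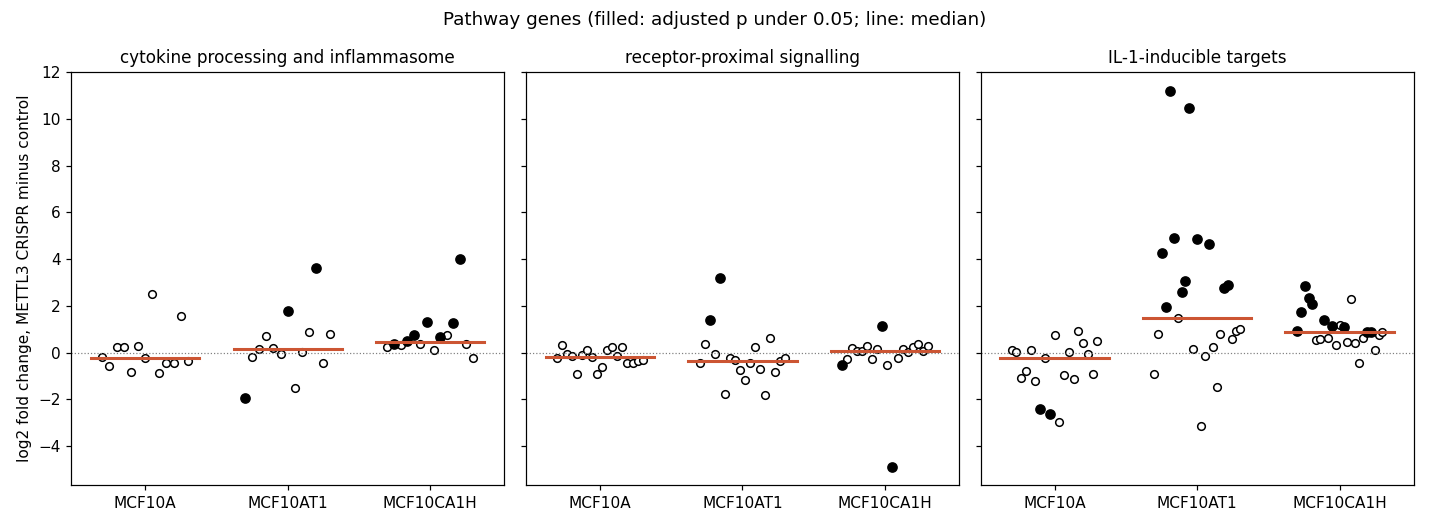
Log2 fold change of METTL3 CRISPR against control for the tested genes of 3 pathway lists in each line, filled points marking an adjusted p under 0.05 and the red bar the median of the list. Filled points among IL-1-inducible genes are all below 0 in MCF10A (2) and all above 0 in MCF10AT1 (11) and MCF10CA1H (10).

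For members of the family whose overall mean reached 50, the genes with the most similar pattern were looked up among 12447 genes by Pearson correlation of log2 values. The points are 18 libraries in 6 groups that share line and arm, so r is only a description. IL1A was closest to SLC37A2 (r = 0.97), IL1B to PTPN1 (0.97), IL18 to RGS14 (0.86), IL1RN to ADGRF4 (0.98), IL1R1 to NCDN (0.87), IL1RL1 to NPC1 (0.95) and IL1RAP to GOLIM4 (0.99). COL17A1, a hemidesmosome collagen, was second for IL1RN (0.97), and YTHDC1, a nuclear reader of N6-methyladenosine, was among the 3 closest to IL1RAP (0.97).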

How the data were processed

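RNA from 3 lines, each as a control and a METTL3 CRISPR line, was sequenced in 18 libraries, 3 per group, and groups and letters were taken from the sample labels. The protocol describes stranded libraries after ribosomal RNA depletion, whereas polyA RNA is named in the labels, and which of them was sequenced is unresolved. Per the methods and the submitters' processing notes, reads were pseudo-aligned to the hg38 transcriptome with kallisto 0.46.1, summed to genes with tximport and normalized with DESeq2 1.26.0 in R 4.1.1. The annotation release is not given in the sources used here. The deposited signal is the authors' normalized count, which is neither a read count nor a value per length. Whole reads could not be recovered, so depth per gene is unknown and no counting interval is given.

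Tests were run on log2(normalized count + 1) with the moderated linear model of limma 3.58.1 in R 4.3.3, its prior variance following intensity. Genes entered a fit when their average there reached 10. A gene with a mean under 10 in a group could thus enter through another group alone, and could then pass only as higher in the latter. In fits of single lines this held for IL33 and IL36G in MCF10CA1H, IL1RL1 in MCF10A and MCF10AT1 and IL1RN in MCF10AT1. In control cells it held for IL33 and IL1R2, and for IL1RL1 in MCF10AT1 against MCF10A. How many list genes entered in this way was not counted. Fold changes are on that scale and understate changes of low genes. P-values were adjusted over all tested genes (Benjamini-Hochberg), and genes under 0.05 were said to pass. Each line was fitted alone, the 9 control libraries in 1 fit, and differences between lines as contrasts in 1 fit of 18 libraries. The scripts were tested on simulated data. Alternatives were pseudocounts of 0.5 and 5, no filter or one at an average of 50, a constant prior variance, equal library sums, the letter as a block, other sets of libraries in the fit and each library left out in turn.

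Letters pair libraries only by their values: correlations of the deviations of same-letter libraries were 0.221, 0.20 and 0.116 in MCF10A, 0.11, 0.289 and 0.477 in MCF10AT1, and -0.011, 0.017 and 0.046 in MCF10CA1H, where they were not taken as pairs. Between different letters the correlations ran from -0.170 to 0.009 in MCF10A, from -0.413 to 0.251 in MCF10AT1 and from -0.119 to 0.104 in MCF10CA1H. The 10 genes and all lists were chosen with earlier results of these data known. Named beside the 10 genes and METTL3 are up to 4 genes with the largest change per list and line, and genes among the 3 most alike to members with an average of at least 50. The match for IL1R2 is not reported here. CASP1 and the markers were named outside that rule after their values were seen. SOD2 and 6 leukocyte markers were not matched in the table. Promoters came from RefSeq (GRCh38.p14) and positions from GENCODE 44. Python 3.11.15 and pandas 2.3.3 were used for sequences.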

Additional observations from a re-analysis of the deposited data

Results flagged for a closer look

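A difference of the CRISPR effect between lines passed the limma test of the difference itself for 13 pairs of gene and contrast, given as log2 differences. For MCF10CA1H minus MCF10A these were IL1A 3.49 (adjusted p = 0.0405), IL1B 5.60 (0.000294), IL1RN 2.63 (0.00806), IL1RL1 8.63 (0.00791) and IL1R2 3.39 (0.0286). For MCF10CA1H minus MCF10AT1 they were IL1A 4.39 (0.00339), IL1B 3.55 (0.00228), IL18 1.56 (0.014), IL33 3.01 (0.0326) and IL1RN 8.27 (2.22e-08). For MCF10AT1 minus MCF10A they were IL18 -1.51 (0.0143), IL1RN -5.64 (1.22e-06) and IL1RL1 9.23 (0.00115). These contrasts share libraries and are not independent of each other.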

How the results depend on the processing

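Over the alternatives, 1357 of the values of single genes kept direction and side of the threshold, 38 passed where the reported value had not, 85 no longer passed and 18 changed sign. The count of genes that passed moved from 2 to 1 with a constant prior variance and to 4 with the replicate block in MCF10A, from 2 to 1 with equal sums and to 5 with either the replicate block or the joint fit in MCF10AT1, from 7 to 2 with the joint fit in MCF10CA1H, and from 3 to 6 with the replicate block for the difference between MCF10AT1 and MCF10A. The cause was not tested. In none of the alternative fits, those without 1 library included, was the share of all genes that passed counted. These counts therefore cannot be set against such a share. Without 1 library the counts ranged from 0 to 3 in MCF10A, 1 to 3 in MCF10AT1, 4 to 6 in MCF10CA1H, 5 to 7 for control cells of MCF10AT1 and 3 to 6 for MCF10CA1H against MCF10AT1, 3 to 5 for both differences from MCF10A and 4 to 6 for MCF10CA1H minus MCF10AT1.

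In MCF10CA1H, where letters were not taken as pairs, the replicate block gave 6 genes, without IL33 (adjusted p = 0.0579). For control cells a block across lines, chosen after seeing the data, gave 5, 5 and 3 genes, without IL1RAP for MCF10AT1 against MCF10A (0.0625) and IL1RN for MCF10CA1H against MCF10AT1 (0.0589). Sign changes were confined to values that had not passed: IL33 for MCF10AT1 minus MCF10A was 0.30 with a pseudocount of 5, and IL18 for MCF10CA1H minus MCF10A was -0.094 with equal sums. Leaving out 1 library, log2 values in control cells ranged from -0.066 to 0.70 for IL18 and -0.52 to 0.12 for IL1R1 (MCF10AT1 against MCF10A), from -0.19 to 0.063 for IL1R1 (MCF10CA1H against MCF10A) and from -0.18 to 0.46 for IL1R1 (MCF10CA1H against MCF10AT1). Differences of the effect ranged from -1.77 to 0.060 for IL1A and -1.20 to 0.16 for IL33 (MCF10AT1 minus MCF10A), from -0.18 to 0.25 for IL18 and -0.60 to 0.071 for IL1R1 (MCF10CA1H minus MCF10A), and from -2.19 to 0.93 for IL1RL1 and -0.38 to 0.87 for IL1RAP (MCF10CA1H minus MCF10AT1). METTL3 ranged from 0.11 to 0.63 in MCF10A, -0.27 to -0.10 in MCF10AT1 and -0.56 to -0.40 in MCF10CA1H. Depth per gene is unknown, and genes at values near 0 depend on the pseudocount.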

Other observations

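The share of IL1B among agonist transcripts also differed by group. The ratio of the normalized count of IL1B to that of IL1A, which is not per length, was 0.27, 0.335 and 0.359 in MCF10A controls and 0.0902, 0.186 and 0.0838 in its METTL3 CRISPR libraries. In MCF10CA1H it was 1.46, 0.965 and 1.08 in controls and 1.91, 1.66 and 1.69 in METTL3 CRISPR libraries. In MCF10AT1 it was 0.826, 0.882 and 0.719 in controls and 6.85, 1.28 and 1.45 in METTL3 CRISPR libraries, on low counts of both genes. In all 3 lines the arms did not overlap, with the ratio lower in METTL3 CRISPR libraries of MCF10A and higher in those of the other 2 lines, and no test was run on it. CD68, a lysosomal gene on the leukocyte marker list, was among the 3 genes most alike to IL1RL1 (r = 0.90 over 18 libraries).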
